A study of Homo sapiens with 6 samples.

Results

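The genes described here encode 10 transcriptional regulators of the immediate early class and its close relatives: FOS, FOSB, FOSL2, JUN, JUNB, JUND, EGR1, IER2, KLF6 and MYC. They were taken by symbol from the 20308 genes of the deposited tables, with no threshold on a measured value, and all 10 were found. RNA was sequenced from LNCaP-AI, a prostate cancer cell line kept without androgen as a model of castration-resistant disease. Cells with stable silencing of METTL1, the catalytic subunit of an N7-methylguanosine (m7G) methyltransferase, gave 3 libraries (shMETTL1). Cells with a scrambled hairpin gave 3 (shscramble). Every library of both groups carries the treatment label of androgen deprivation, and culture medium held 10% fetal bovine serum. Whether each group was 1 clone or a pool of cells is not given in the sources used here, and neither is whether replicates were separate cultures. The p-values therefore measure only the spread between these libraries.

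Immediate early genes are transcribed within minutes of a growth factor, serum or stress signal, from promoters that are already poised, and their mRNAs are short-lived because AU-rich elements recruit decay factors. FOS and JUN proteins pair through leucine zippers into the AP-1 factor, EGR1 is a zinc finger factor that induces its own NAB repressors, and MYC pairs with MAX to drive genes of growth and ribosome production. In prostate cancer cells these factors act downstream of the ERK, JNK and p38 kinase cascades. The comparison asks whether their mRNAs differ once METTL1 is silenced.

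No member passed the test between the groups. MYC had the same mean in both groups, FOS and EGR1 differed by less than the spread between replicates, and JUN had a lower mean in shMETTL1 while IER2 and JUND had higher ones, within overlapping values. Called genes made up 0.123% of the 12156 genes tested by limma on FPKM and 6.33% of the 11248 tested by edgeR on the estimated counts, and 0 of the 10 members were called by either tool or by DESeq2, whose share of called genes was 6.23%. At an unadjusted p under 0.05 the members numbered 0 by limma, against 14.2% of all genes, 1 by edgeR (JUN), against 22.8%, and 1 by DESeq2, against 14.8%. The FPKM values of the groups overlapped for every member, whereas 19.8% of the genes tested had groups that did not overlap, and the estimated counts overlapped for every member as well, against 26% of genes apart. The median log2 fold change of the members was 0.07, beside 0.02 for all genes tested.

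The promoters of EGR1, FOS, JUN and JUND are shown because serum, cyclic AMP and AP-1 itself are known to act on these genes through short motifs near the start site. Each is the 250 bases before the RefSeq start, on GRCh38.p14. Motif positions are counted from that start, which for EGR1, FOS and JUN is not the start in the GENCODE gene positions given below. By the GENCODE positions the JUN window lies wholly inside the gene (58780788 to 58784327, minus strand). The FOS window runs past the GENCODE start at 75278774. For these genes the windows and motif positions therefore hold for the RefSeq start only. Capitals mark TGACGT, the core of the cyclic AMP response element, TGANNTCA, the longer element that ATF and JUN proteins bind, and the CArG box of serum response factor, each on either strand, so ACGTCA is TGACGT read from the other strand.
EGR1, chr5:138465229-138465478, plus strand: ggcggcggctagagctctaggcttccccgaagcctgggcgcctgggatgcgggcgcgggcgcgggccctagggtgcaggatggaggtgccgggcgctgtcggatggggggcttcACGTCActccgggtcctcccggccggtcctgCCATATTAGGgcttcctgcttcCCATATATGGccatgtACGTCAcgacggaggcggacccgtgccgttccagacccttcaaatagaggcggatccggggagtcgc
FOS, chr14:75278578-75278827, plus strand: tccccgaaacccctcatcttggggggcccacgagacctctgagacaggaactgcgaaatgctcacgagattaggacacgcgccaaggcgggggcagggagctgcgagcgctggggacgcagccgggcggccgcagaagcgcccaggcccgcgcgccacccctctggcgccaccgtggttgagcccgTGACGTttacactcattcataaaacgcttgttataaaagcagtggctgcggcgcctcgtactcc
JUN, chr1:58784048-58784297, minus strand: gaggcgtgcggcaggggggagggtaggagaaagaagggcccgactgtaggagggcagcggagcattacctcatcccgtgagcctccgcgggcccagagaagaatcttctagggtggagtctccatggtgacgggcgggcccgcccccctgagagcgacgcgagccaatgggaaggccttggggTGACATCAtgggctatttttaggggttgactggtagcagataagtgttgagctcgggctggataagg
JUND, chr19:18281623-18281872, minus strand: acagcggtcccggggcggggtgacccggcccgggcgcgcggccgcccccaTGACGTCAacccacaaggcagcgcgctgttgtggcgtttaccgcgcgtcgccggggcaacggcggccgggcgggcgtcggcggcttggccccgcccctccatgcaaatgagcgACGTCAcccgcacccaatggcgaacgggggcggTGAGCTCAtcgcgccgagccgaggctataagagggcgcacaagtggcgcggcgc

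EGR1 held a pair of CArG boxes, at -105 to -96 and -83 to -74 from the start, with a TGACGT on either side. FOS held a single TGACGT at -64 to -59, and JUN a TGANNTCA at -67 to -60. JUND held a TGANNTCA at -200 to -193 that is also a TGACGT on both strands. Nearer the start, JUND held a TGACGT at -87 to -82 and another TGANNTCA at -54 to -47. Of the 9 members with a promoter in the RefSeq table, 5 held TGACGT (FOS, FOSB, FOSL2, JUND and EGR1), as did 7.1% of the 35116 promoters, and 3 held TGANNTCA (JUN, JUND and KLF6), as did 10.1%. Within the stretch before the start that was searched, the CArG box was found in EGR1 alone among the 9 and in 1.16% of all promoters. Bases farther upstream were not searched, so a CArG box there in FOS or another member would have been missed. TGANTCA, the classical AP-1 site, was in none of the 9 and in 6.57% of promoters. The EGR motif GCGNGGGCG was in EGR1 and KLF6 (8.41% of promoters) and the MYC motif CACGTG in KLF6 (6.34%). GGGCGG, bound by SP1 and KLF factors, was in 7 (42.6%), and TATAAA was in FOS, FOSB and JUNB (10.7%). These matches are letters in a window and say nothing of binding in these cells.

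**Figure D1:**
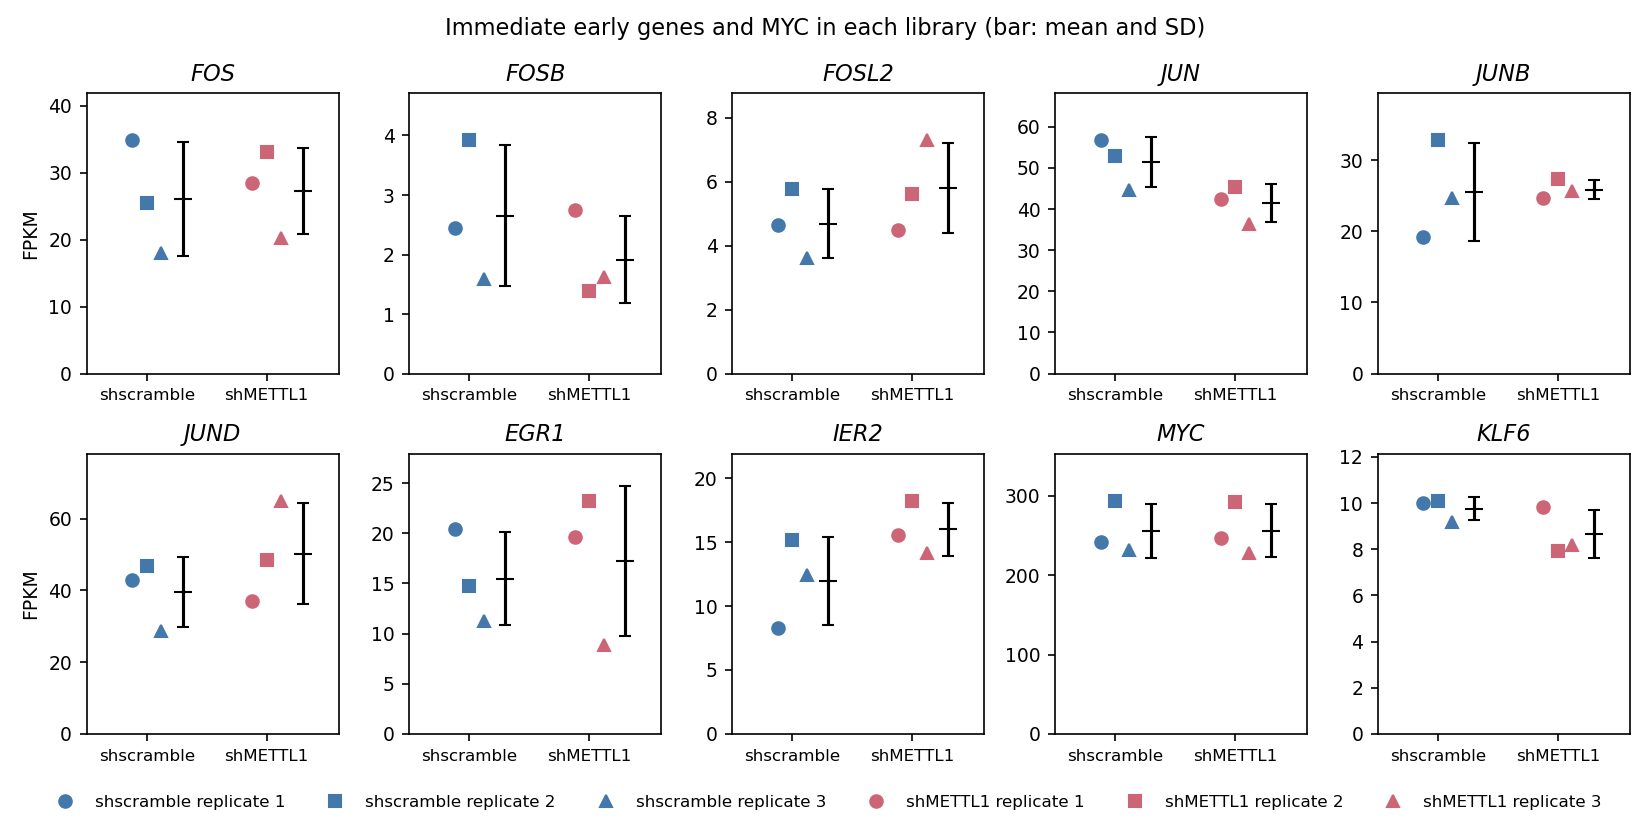
FPKM (vertical axis, linear from 0 in each panel) of each member in the 3 shscramble libraries (blue) and the 3 shMETTL1 libraries (red), with marker shape for the replicate and a bar for the mean and SD. The groups overlap in every panel, and MYC spans 228 to 294 FPKM with the same mean in both groups.

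Levels are given as FPKM, which is per length and can be compared between genes. MYC was the highest, with a mean of 256 FPKM over the 6 libraries, above 98.3% of the genes tested, and FOSB the lowest at 2.28, above 12.1%. Between them stood JUN (46.4), JUND (44.9), FOS (26.7), JUNB (25.7), EGR1 (16.4), IER2 (14.0), KLF6 (9.21) and FOSL2 (5.24). Of the neighbours in this order, MYC was above JUN, JUND above FOS, KLF6 above FOSL2 and FOSL2 above FOSB in 6 of 6 libraries. JUNB was above EGR1 and IER2 above KLF6 in 5 of 6. JUN and JUND (4 of 6), FOS and JUNB (3 of 6) and EGR1 and IER2 (3 of 6) changed places between libraries, so their order was not resolved.

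Among the FOS proteins, which bind AP-1 sites only as partners of JUN proteins, FOS itself was the main transcript. FOS (GRCh38 chromosome 14, 75278774 to 75282230, plus strand) had 34.8, 25.5 and 17.9 FPKM in shscramble replicates 1, 2 and 3, and 28.4, 33.0 and 20.2 in shMETTL1 replicates 1, 2 and 3. The third library was the lowest of each group, and the shscramble libraries alone ranged more widely than the group means differed. FOS averaged 26.1 ± 8.47 and 27.2 ± 6.47 FPKM (SD, n = 3 in each group, as for every mean given here). The log2 fold change came to 0.08 (standard error 0.27, 95% interval -0.52 to 0.68, limma, adjusted p = 0.915; 0.398 to 0.988 over the alternatives). The interval runs from 0.698 to 1.61 as a fold, so a change of that size could not be detected with these libraries.

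FOSB, which also gives rise to a truncated form that accumulates under repeated stimulation, was the lowest member. FOSB (chromosome 19, 45467995 to 45475179, plus strand) had 2.45, 3.92 and 1.59 FPKM in shscramble and 2.74, 1.39 and 1.62 in shMETTL1, with estimated counts of 8.38 to 19.1 and 15.8 to 20.4. Its log2 fold change was -0.36 by limma on FPKM (interval -1.24 to 0.52, adjusted p = 0.703) and 0.24 by edgeR on the counts (adjusted p = 0.784; 0.625 to 0.966 over the alternatives), so even the sign was not settled. FOSL2, the FOS relative that is induced later, lies at chromosome 2, 28392448 to 28417312, plus strand. It had 4.64, 5.79 and 3.62 FPKM in shscramble and 4.49, 5.63 and 7.30 in shMETTL1, a log2 fold change of 0.28 (-0.35 to 0.91, adjusted p = 0.675). Only shMETTL1 replicate 3 lay above the shscramble range.

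Adding FOSL1 to these 3 genes, the FOS family summed to 33.6 ± 9.73 FPKM in shscramble and 35.1 ± 5.60 in shMETTL1. FOS made up 77.2 ± 5.12% and 76.8 ± 6.56% of that sum, FOSL2 14.3 ± 2.93% and 17.2 ± 6.87%, and FOSB 7.91 ± 2.80% and 5.53 ± 2.09%. The FOS share was thus alike in mean, while in shMETTL1 the mean FOSL2 share was higher and the mean FOSB share lower. The composition of the family was not tested.

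The JUN proteins can pair with each other as well as with FOS proteins, and JUN is the member that activates its own promoter. JUN (chromosome 1, 58780788 to 58784327, minus strand, a gene of 1 exon) had 56.8, 52.8 and 44.7 FPKM in shscramble and 42.5, 45.3 and 36.3 in shMETTL1. The groups overlapped through a single pair, shMETTL1 replicate 2 lying just above shscramble replicate 3. JUN averaged 51.4 ± 6.15 and 41.4 ± 4.61 FPKM, a log2 fold change of -0.31 (standard error 0.16, interval -0.67 to 0.05, limma, adjusted p = 0.412). By edgeR it was -0.37, with an unadjusted p of 0.0102 and an adjusted p of 0.0944.

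JUNB, which often opposes JUN in growth control, was level between the groups. JUNB (chromosome 19, 12791496 to 12793315, plus strand, 1 exon) had 19.2, 32.8 and 24.7 FPKM in shscramble, a range that enclosed the shMETTL1 values of 24.6, 27.4 and 25.7. Its log2 fold change was 0.05 (-0.42 to 0.52, adjusted p = 0.937). JUND, the JUN gene that is expressed without stimulation in most cells, lies at chromosome 19, 18279760 to 18281622, minus strand. It had 43.0, 47.0 and 28.6 FPKM in shscramble and 37.0, 48.5 and 65.1 in shMETTL1. Its log2 fold change of 0.34 had a standard error of 0.25 (-0.22 to 0.89, adjusted p = 0.566), and shMETTL1 replicate 1 was below a pair of the shscramble libraries.

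JUN and JUND were called in a single setting, edgeR without shscramble replicate 2. There JUN fell (-0.40 on the log2 scale, adjusted p = 0.0337) and JUND rose (0.60, adjusted p = 0.00737). In that setting 1989 genes were called, 17.5% of those tested, so the 2 members called of 10 stand near the share of all genes. By limma without the same library 189 genes were called, 1.56%, and no member (JUN adjusted p = 0.375, JUND 0.343). Over all alternatives the adjusted p ran from 0.0337 to 0.657 for JUN and from 0.00737 to 0.894 for JUND.

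The 3 JUN genes together summed to 116.5 ± 17.4 FPKM in shscramble and 117.5 ± 11.9 in shMETTL1. JUN held 47.7%, 39.8% and 45.6% of the sum in shscramble replicates 1, 2 and 3 and 40.8%, 37.4% and 28.6% in shMETTL1. JUND held 36.2%, 35.4% and 29.1%, and then 35.6%, 40.0% and 51.2%. The JUND share exceeded the JUN share only in shMETTL1 replicates 2 and 3, and these shares, computed after the values were seen, were not tested. The ratio of the JUN sum to the FOS sum was 3.60 ± 0.72 and 3.42 ± 0.81.

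**Figure D2:**
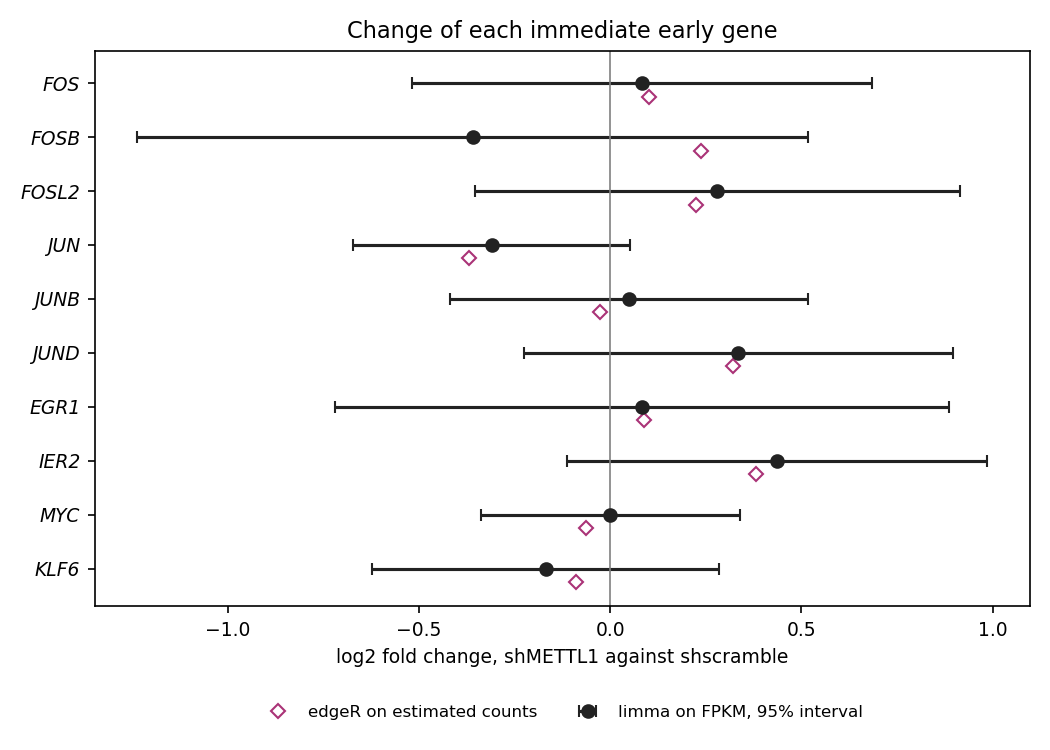
Log2 fold change of shMETTL1 against shscramble (horizontal axis) for each member, by limma on FPKM (black points with 95% intervals) and by edgeR on the estimated counts (open diamonds). Every interval includes 0, and the estimates of both methods lie on opposite sides of 0 for FOSB, JUNB and MYC.

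EGR1, the early factor most directly driven by ERK and serum response factor, varied most between replicates. EGR1 (chromosome 5, 138465490 to 138469315, plus strand) had 20.4, 14.7 and 11.3 FPKM in shscramble and 19.6, 23.3 and 8.83 in shMETTL1. The lowest and the highest of the 6 values were both shMETTL1 libraries. EGR1 averaged 15.5 ± 4.63 and 17.2 ± 7.51 FPKM, a log2 fold change of 0.08 (standard error 0.36, interval -0.72 to 0.88, limma, adjusted p = 0.938). IER2, a small nuclear regulator induced with the same kinetics, lies at chromosome 19, 13150415 to 13154908, plus strand. It had 8.31, 15.2 and 12.4 FPKM in shscramble and 15.5, 18.2 and 14.2 in shMETTL1. All shMETTL1 values lay above shscramble replicates 1 and 3, and the overlap came from replicate 2. This was the largest fitted change among the members by limma, 0.44 (-0.11 to 0.99, adjusted p = 0.447), and its adjusted p ran from 0.0662 to 0.765 over the alternatives.

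KLF6, a zinc finger factor studied as a growth suppressor in prostate tissue, was the steadiest member. KLF6 (chromosome 10, 3775996 to 3785281, minus strand) had 9.99, 10.1 and 9.19 FPKM in shscramble and 9.85, 7.94 and 8.19 in shMETTL1, with a log2 fold change of -0.17 (-0.62 to 0.29, adjusted p = 0.734). MYC, whose mRNA turns over within minutes and is amplified or raised in many prostate tumours, had 242, 294 and 231 FPKM in shscramble and 247, 293 and 228 in shMETTL1. The second library was the highest of each group and the third the lowest. MYC averaged 256 ± 33.6 and 256 ± 33.4 FPKM, a log2 fold change of 0.00 (standard error 0.15, interval 0.792 to 1.26 as a fold, limma, adjusted p = 0.999). By edgeR the log2 fold change was -0.06 (adjusted p = 0.795).

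The spread between replicates differed widely among the members. Against genes within a 2-fold range of its level, the pooled SD of EGR1 within groups (0.59 on the log2 scale) exceeded that of 95.4% of genes, that of JUND 89.5% and that of FOS 87.6%. KLF6 exceeded 5.72%, JUN 29.6% and FOSL2 40.6%, with MYC (52.6%), FOSB (53.8%), JUNB (59.5%) and IER2 (62.2%) near the middle. In the shscramble group replicate 2 was the highest for 7 of 10 members and replicate 3 the lowest for 8. In the shMETTL1 group replicate 2 was the highest for 6 and replicate 3 the lowest for 5. Replicates carry no order, and numbers did not pair the libraries over all genes.

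**Figure D3:**
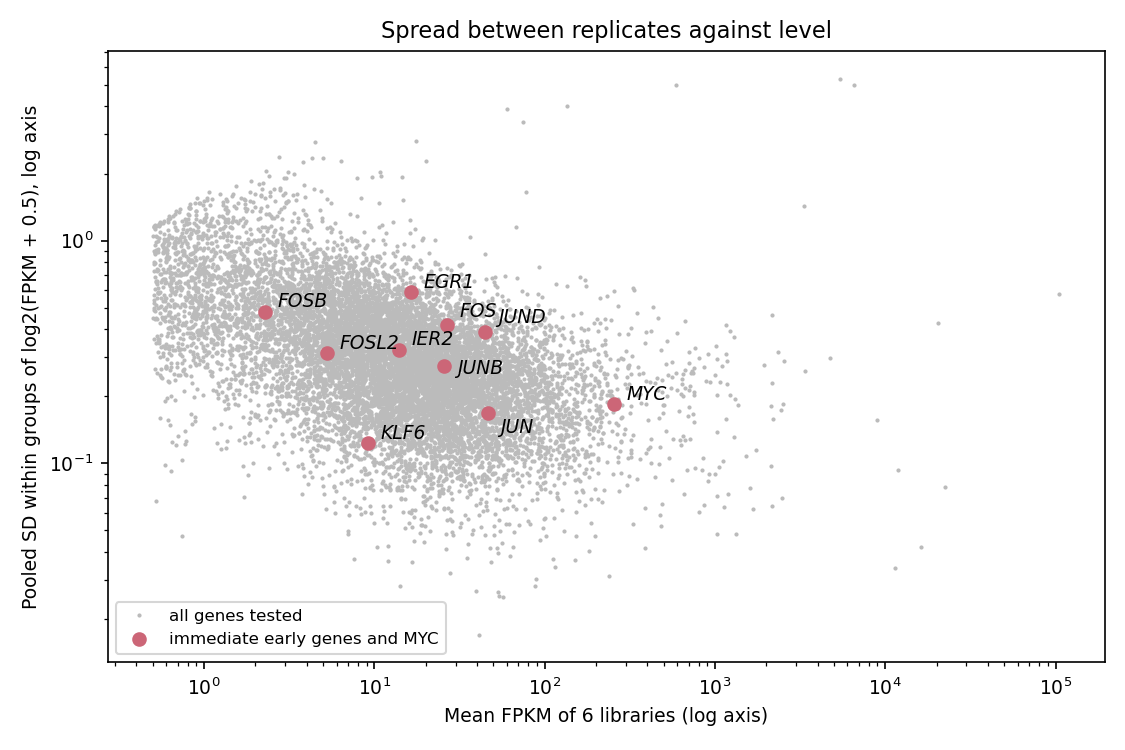
Pooled SD of log2(FPKM + 0.5) within groups (vertical, log axis) against the mean FPKM of the 6 libraries (horizontal, log axis) for the 12156 genes tested (grey) and the 10 members (red). EGR1, FOS and JUND lie high among genes of their level and KLF6 lies low.

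The genes with the most similar profiles over the 6 libraries were not other members. For FOS they were DIP2C, CRTC2 and PINK1, with root mean square differences of 0.12, 0.12 and 0.12 on the centred log2 scale, and for JUN they were RBM48, WNT7B and ZNF618 (0.04, 0.06 and 0.06). For EGR1 they were TARBP2, TMEM143 and SETD4 (0.15, 0.18 and 0.18), and for MYC they included SLC25A5 and HERPUD2 (0.05 and 0.05). EGR1 was the member nearest to FOS, at 0.22, with 67 of 9225 candidates nearer to FOS and 5 nearer to EGR1. The nearest member to MYC was JUNB (0.17), with 989 candidates nearer. With 6 libraries and 9225 candidates these profiles are a description.

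FPKM and the estimated count of a gene should move together unless the transcript length used for FPKM changed between libraries. The count per FPKM was divided by the median of its library over 10515 genes, then by the mean of the gene over the 6 libraries. This relative count per FPKM differed at most 1.06-fold between libraries for JUN, JUNB and EGR1, each with 1 annotated transcript, and 1.07-fold for MYC. For the median of 10515 genes it was 1.33-fold. JUND reached 1.62-fold: shscramble replicate 1 stood at 0.712 and shMETTL1 replicate 3 at 0.768, while the other 4 libraries lay between 1.10 and 1.16. The highest JUND value by FPKM, 65.1 in shMETTL1 replicate 3, thus had an estimated count of 308.9, below the 348.9 of replicate 2. FOSB reached 2.39-fold, with 0.610 and 0.673 in shscramble replicates 2 and 3 and 1.40 and 1.46 in shMETTL1 replicates 2 and 3. For FOS it was 1.42-fold and for KLF6 1.37-fold. By FPKM shscramble replicate 1 was the highest for FOS, and by count shMETTL1 replicate 1 was. KLF6 in shscramble replicate 1 was second only to replicate 2 of that group by FPKM and the lowest by count.

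**Figure D4:**
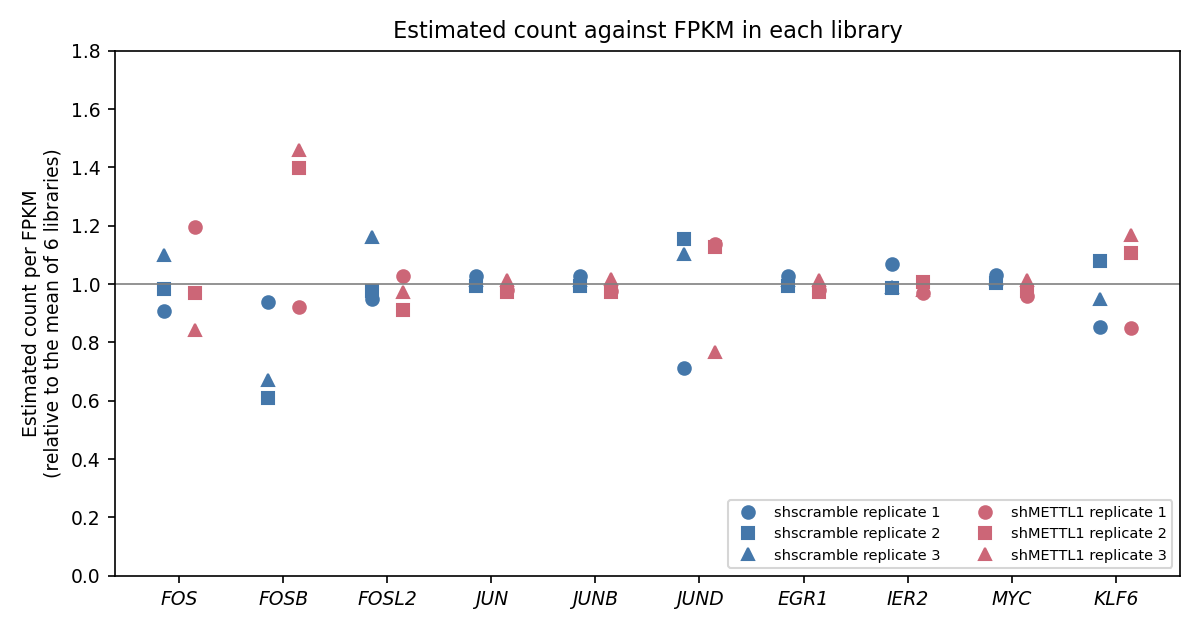
Estimated count per FPKM of each member (vertical axis, linear from 0) in each library, with colour for the group and marker shape for the replicate. Values were divided by the median of the library over genes, then by the mean of the member over its 6 libraries. JUN, JUNB and EGR1 sit close to 1, FOSB runs from 0.610 to 1.46, and JUND is low in shscramble replicate 1 and shMETTL1 replicate 3.

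Reads from overlapping genes could enter some of these values, since the strand setting of the counting is not given in the sources used here. In GENCODE 29 FOSB overlaps ERCC1 (17.8 FPKM) and JUNB overlaps HOOK2 (79.4 FPKM), both on the opposite strand. Antisense genes lie over FOSL2 and IER2, and FOSL2 also overlaps AC104695.3, a sense intronic gene on its own strand.

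Among 11 other AP-1 subunits and dimer partners, 8 were tested, with a median log2 fold change of 0.01, and none was called by limma or by edgeR, which tested 6. BATF3, a partner of JUN proteins in leukocytes, had 5.22, 3.15 and 3.43 FPKM in shscramble and 0, 0.322 and 1.73 in shMETTL1 and did not overlap, but its estimated counts were at most 14.9, its adjusted p was 0.146 by limma and edgeR did not test it. ATF2, ATF7 and MAFK had adjusted p of 0.657, 0.758 and 0.691. Of the EGR relatives and their NAB repressors 2 were tested. NAB1, a corepressor that EGR factors recruit, had 7.69 ± 2.98 and 4.70 ± 2.26 FPKM (limma adjusted p = 0.431) and fell by edgeR (-1.04, adjusted p = 0.0276; 0.00473 to 0.739 over the alternatives), and NAB2 had a log2 fold change of 0.41 (adjusted p = 0.731).

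Among 30 other immediate early genes 24 were tested, with a median of 0.09, and limma called none. CEBPB, a bZIP factor that stress and growth signals induce, had 9.95 ± 6.35 FPKM in shscramble and 23.2 ± 3.86 in shMETTL1 with no overlap (limma log2 fold change 1.33, adjusted p = 0.177) and rose by edgeR (1.18, adjusted p = 0.0202; 1.76e-05 to 0.401 over the alternatives), the only one of 22 that did. MIDN (0.65, adjusted p = 0.186), DUSP1, the phosphatase that ends MAP kinase signals (0.42, 0.332), and GADD45B (-0.98, 0.205) were not called by limma or edgeR. Their FPKM did not overlap between groups, as for 19.8% of genes, whereas the counts of MIDN did overlap and gave 0.32 by edgeR. Without shscramble replicate 2 edgeR called 5 of this list, where 17.5% of all genes were called. Of the KLF family outside KLF2, KLF4, KLF6 and KLF10, 8 were tested, with a median of -0.13. KLF13 fell by edgeR (-0.54, adjusted p = 0.0102; limma 0.243; range 0.00167 to 0.466), and KLF9 (-0.35), KLF16 (0.35) and KLF15 (0.32) were not called by either.

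Upstream, the 9 serum response and ternary complex factors had a median of 0.00 and none was called by limma or edgeR. MRTFA, the actin-regulated partner of SRF, had 6.45 ± 2.69 and 10.8 ± 2.60 FPKM (adjusted p = 0.364), and CREM, ELK1 and SRF had adjusted p of 0.405, 0.488 and 0.692. Of 27 receptor and ERK cascade genes, with a median of 0.02, edgeR called RPS6KA2, a kinase downstream of ERK, as higher (0.57, adjusted p = 0.0382; range 0.00139 to 0.436) and MET, the receptor of hepatocyte growth factor, as lower (-1.19, 0.0158; range 0.000346 to 0.578), and limma called neither (0.193 and 0.307). HRAS (0.44) was not called by either. Of 16 JNK and p38 cascade genes, with a median of 0.20, MAPK14, which encodes p38 alpha, rose by edgeR (0.64, adjusted p = 0.0279; limma 0.178; range 0.00881 to 0.446). MAPKAPK2 (0.44), MAPK10 (1.15) and MAP2K4 (0.48) were not called by either.

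Of 13 feedback inhibitors of these cascades that edgeR tested, 2 rose and 1 fell, where edgeR called 6.33% of all genes. DUSP4, an ERK and JNK phosphatase, had 7.08 ± 1.76 and 3.03 ± 0.194 FPKM and fell (-1.23, adjusted p = 0.000668; limma 0.133; range 1.83e-06 to 0.346). DUSP16 (0.54, 0.0299; range 0.00602 to 0.46) and DUSP8 (0.90, 0.0127; range 0.00111 to 0.438), which act on JNK, rose by edgeR and were not called by limma (0.212 and 0.221), and DUSP10 was called by neither. The list had 16 tested genes with a median of -0.01, and without shscramble replicate 2 edgeR called 6, where 17.5% of all genes were called.

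**Figure D5:**
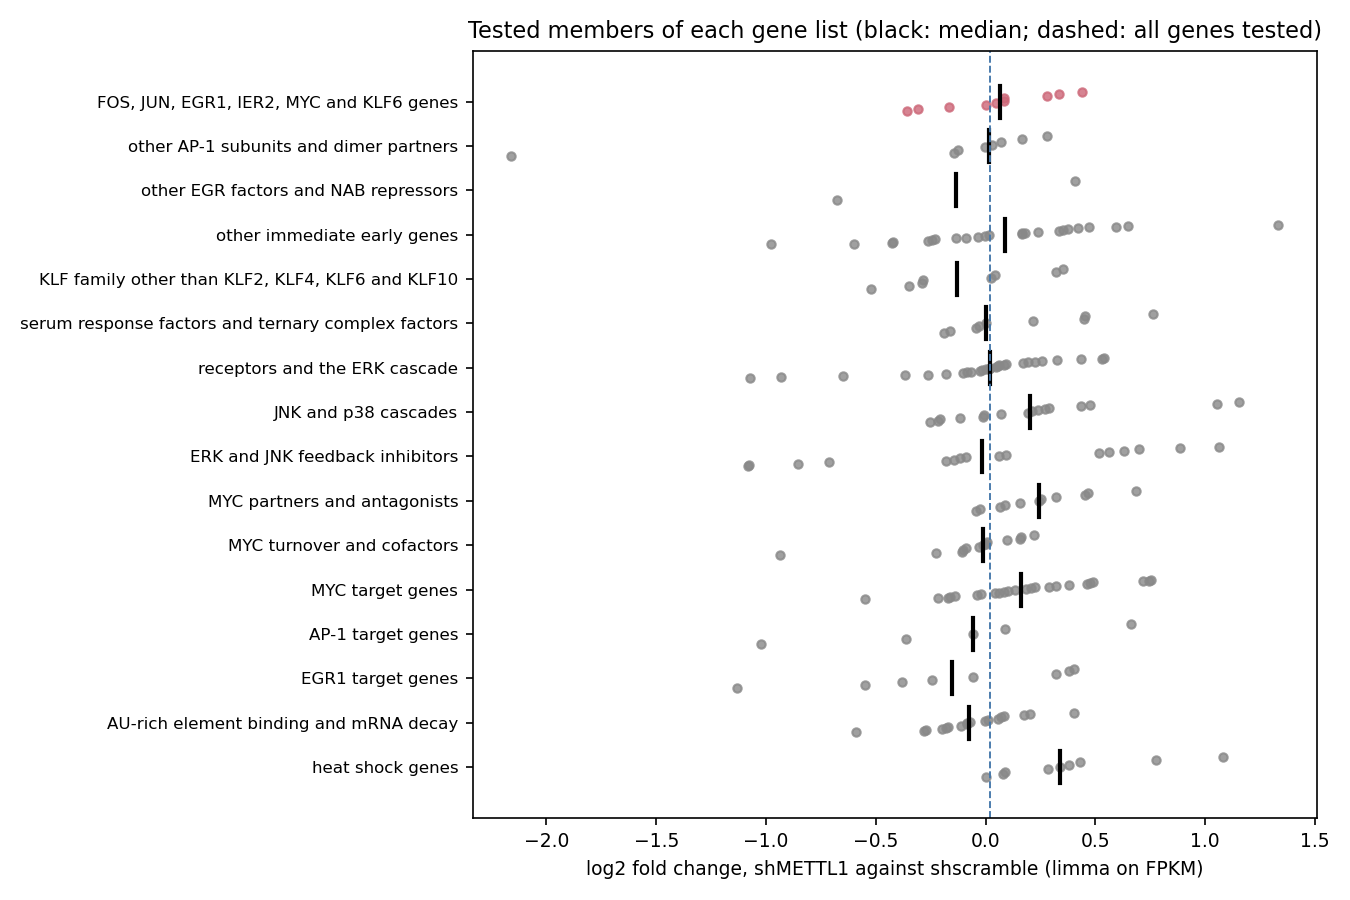
Log2 fold change by limma on FPKM (horizontal axis) of each tested gene in the lists described here, other than the luminal markers and the markers of other cell types, with the 10 members in red, the list median in black and the median of all genes tested as a dashed line. The members' median of 0.07 lies near the line at 0.02, and limma called none of the genes drawn.

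Among the partners and antagonists of MYC 11 were tested, with a median of 0.24 by limma, against 0.02 for all genes, and of 0.11 by edgeR, against 0.00. MLXIP, a glucose-sensing relative of MYC that pairs with MLX, had 18.7 ± 2.97 and 30.3 ± 4.23 FPKM and rose by edgeR (0.78, adjusted p = 0.00181; limma 0.177; range 1.18e-05 to 0.379). MAX, the obligate partner of MYC, had 92.5 ± 9.64 and 109 ± 4.14 FPKM (limma adjusted p = 0.441), MXD4 had an adjusted p of 0.411, and MXI1 changed sign between limma (0.32) and edgeR (-0.12). Of 13 genes for MYC turnover and cofactors, with a median of -0.01, ZBTB17, which encodes the MYC partner MIZ1, had 32.9 ± 5.75 and 17.7 ± 6.66 FPKM and fell by edgeR (-1.34, adjusted p = 0.00173; limma 0.216; range 6.97e-09 to 0.425). The ubiquitin ligases HUWE1 (0.22) and SKP2 (-0.22) and the cofactor WDR5 (0.16) were called by neither.

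Of 24 MYC target genes, with a median of 0.16, edgeR called 1 of 23, beside 6.33% of all genes, and limma none. ODC1, the rate-limiting enzyme of polyamine synthesis, had 104 ± 11.8 and 171 ± 11.4 FPKM and rose by edgeR (0.65, adjusted p = 0.0024; limma 0.71, 0.0827; range 4.83e-07 to 0.282). GNL3 (0.47, adjusted p = 0.158), CAD (0.75, 0.177) and NME1 (0.46, 0.228) were not called by limma or edgeR. DESeq2 called GNL3 (adjusted p = 0.045) and not CAD or NME1. The FPKM of these genes did not overlap between groups, as for 19.8% of genes, whereas the counts of CAD did overlap and gave 0.29 by edgeR. Without shscramble replicate 2 edgeR called 7 of the list and limma 2, where 17.5% and 1.56% of all genes were called. MYC itself had equal means, as above.

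Few AP-1 targets were expressed. Of 20 measured, 14 were below 1 FPKM in every library, among them MMP1, MMP3, MMP9 and TIMP1, which were listed at 0, and 5 were tested, with none called by limma or, of 3, by edgeR. CCND1, which encodes cyclin D1, had 96.6 ± 2.80 and 103 ± 10.7 FPKM (adjusted p = 0.796). HBEGF had a log2 fold change of 0.66 (adjusted p = 0.42), KRT14 -1.02 (0.489) and VIM -0.36 (0.702). Of 8 EGR1 targets tested, with a median of -0.15, none was called by either tool. PDGFB had an adjusted p of 0.469 by limma. HPSE had 1.91 ± 0.101 FPKM in shscramble and 1.16 ± 0.341 in shMETTL1, with groups that did not overlap, as for 19.8% of genes. Its adjusted p was 0.494 by limma and 0.0534 by edgeR (log2 fold change -1.20). Without shscramble replicate 2 edgeR called 3 of 7 EGR1 targets, where 17.5% of all genes were called. F3, which encodes tissue factor, had 3.02, 0.119 and 0.102 FPKM in shscramble and was listed at 0 in all 3 shMETTL1 libraries.

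The AU-rich element binding and decay list, whose products set the half-life of early mRNAs, had 18 tested genes and a median of -0.08. IGF2BP3 (16.1 ± 1.66 and 10.5 ± 0.914 FPKM, limma adjusted p = 0.224), TIA1 (0.367), CNOT8 (0.484) and EXOSC3 (0.501) were called by neither tool. XRN1, the main 5' exonuclease, had a log2 fold change of 0.07 by limma (adjusted p = 0.915) and fell by edgeR (-0.54, 0.0262; range 0.0016 to 0.977), so its sign depends on the measure.

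Over the 17 lists, 212 distinct genes were tested by limma and 1 was called, and edgeR called 19 of 200, or 9.5%, beside 6.33% of all genes. Immediate early mRNAs are known to respond to handling of cells, so heat shock genes were read too. All 9 tested had log2 fold changes above 0 (median 0.34), and HSPH1, HSPA1B and HSPA8 rose by edgeR (0.83, 1.05 and 0.52; adjusted p = 0.00319, 0.0087 and 0.0435, with ranges over the alternatives of 7.63e-06 to 0.35, 2.04e-06 to 0.379 and 0.00194 to 0.491), while DNAJA1 was called by neither tool and limma called none. Their part in the levels of the members was not tested.

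Prostate luminal markers were present, with KLK3 at 1189 and 806 FPKM in mean for shscramble and shMETTL1. Of 12 markers, 7 had log2 fold changes above 0, with a median of 0.10 by limma and -0.04 by edgeR. KLK2 fell by limma (-1.08, adjusted p = 0.0356), which called 0.123% of all genes. KLK2, KLK3 and TMPRSS2 fell by edgeR, 3 of 12 tested, where edgeR called 6.33% of all genes. The keratin gene KRT18 had a log2 fold change of 0.38 with groups apart and was called by DESeq2 (adjusted p = 0.0433) but not by limma (0.237) or edgeR (0.0611). Of 19 markers of other cell types 10 were at 0 in every library, including KRT5, CHGA and PTPRC, and 3 were tested (CD68, COL1A1 and KRT14). None was called by limma or edgeR, and CD68 stood at 14.6 ± 2.56 and 6.73 ± 1.19 FPKM (adjusted p = 0.109). The summed FPKM of the other-type list was 26.9 to 28.3 in shscramble and 14.5 to 17.8 in shMETTL1. CD68 and COL1A1 (10.1 and 8.14 FPKM in mean) were its largest terms. PTPRC and CD3E were at 0 in every library, and SYP had the higher mean in shMETTL1 (0.285 and 0.697). The part of this list in the results was not tested. In bulk RNA, fewer cells of a type and less RNA per cell cannot be told apart. The totals of the estimated counts were 3389897 to 3604835 per library, mitochondrial genes took 11.2% to 13.1% of them, and METTL1 itself averaged 17.8 ± 3.62 and 9.02 ± 1.30 FPKM, lower in every shMETTL1 library. It was not called by limma (adjusted p = 0.127) and fell by edgeR (-1.36, adjusted p = 0.0368; 0.00476 to 0.364 over the alternatives).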

How the data were processed

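RNA of 6 LNCaP-AI libraries was analysed from the processed tables. The tools listed in the processing notes of the submitters are HISAT2 2.0.4, cutadapt 1.9.3, Cuffdiff and Cufflinks, and the build listed is hg19, without roles. The authors deposited FPKM, relative to transcript length and mapped fragments, and an estimated count per gene. The estimated counts deposited by the authors had near-equal totals (3389897 to 3604835), so sequencing depth cannot be read from them and no counting interval was computed. Of 20308 genes, 19434 had a symbol.

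Genes averaging 0.5 FPKM or more were fitted with limma 3.58.1 (trend and robust prior, R 4.3.3) on log2(FPKM + 0.5), which understates changes of low genes. Tests were two-sided, with Benjamini-Hochberg adjustment over all genes and calls at 0.05. Estimated counts were rounded for edgeR 4.0.16 (quasi-likelihood) and DESeq2 1.42.0. Same-numbered libraries did not deviate together (r = 0.00, 0.05 and -0.02), so no pairing was used. Alternatives covered the pseudocount, filter, scaling, model, block and each library left out.

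The members and the 17 lists were chosen with earlier results of these data known. Named were METTL1, the members, up to 4 genes per list with the smallest p plus any called, and the 3 nearest profiles of FOS, JUN, EGR1 and MYC among genes of mean FPKM at least 5. Gene positions are from GENCODE 29 and promoters from RefSeq, both on GRCh38, not the build of the files. MYC had no entry in the promoter table. Some genes that the naming rule selects are not reported here.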

Additional observations from a re-analysis of the deposited data

How the results depend on the processing

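In 25 of 26 alternatives no member was called, and 5 members (FOSL2, JUN, JUND, IER2 and KLF6) kept their sign in all 26, although with one library left out FOSL2 ran from 0.022 to 0.44, JUN from -0.46 to -0.22, JUND from 0.12 to 0.60, IER2 from 0.21 to 0.62 and KLF6 from -0.26 to -0.0044. The exception was edgeR without shscramble replicate 2. With one library left out, over the limma and edgeR fits together, members called ranged from 0 to 2 and genes called from 3 to 1989. The 1989 came from edgeR without shscramble replicate 2, where limma called 189. With all 6 libraries limma on FPKM called 15 genes and edgeR 712. Other gene counts were 4 by limma with no filter on FPKM and 7 without trend and robust prior. By edgeR they were 709 with median-ratio scaling, 666 with totals only and 1094 with no count filter, and by DESeq2 713. With the replicate block limma called 6 genes and edgeR 1015, and no member in either.

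Some changes reversed. Under edgeR, its median-ratio, totals-only and unfiltered forms, DESeq2 and the edgeR block, in that order, FOSB was 0.24, 0.24, 0.25, 0.25, 0.24 and 0.27, JUNB -0.026, -0.026, -0.023, -0.018, -0.021 and -0.0097, and MYC -0.064, -0.064, -0.056, -0.056, -0.060 and -0.066. MXI1 was -0.12, -0.12, -0.11, -0.12, -0.12 and -0.13 and XRN1 -0.54, -0.54, -0.53, -0.53, -0.54 and -0.54. MYC was -0.027 with median-ratio scaling of FPKM. With one library left out FOS ran from -0.16 to 0.36, FOSB from -0.62 to 0.44, JUNB from -0.16 to 0.24, EGR1 from -0.18 to 0.49, MYC from -0.17 to 0.11, NAB2 from -0.13 to 0.93, MXI1 from -0.23 to 0.55, WDR5 from -0.064 to 0.29 and XRN1 from -0.64 to 0.30. Of 468 list medians under the alternatives, 91 moved by more than the SD between replicates. The cause was not tested.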
